A study of Mus musculus with 14 samples.

Results

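The growth hormone and IGF axis was followed in the liver through 10 genes, taken by name from the table of read counts: the receptor gene *Ghr*, the transducer genes *Stat5a* and *Stat5b*, the feedback inhibitor genes *Socs2* and *Cish*, and *Igf1*, *Igfals*, *Igfbp1*, *Igfbp2* and *Igfbp4*, which encode secreted proteins. They are 10 of the 55487 genes counted, and all 10 were among the 12653 genes with enough reads to be tested. Bulk liver RNA came from 14 male TALLYHO mice, a strain that develops type 2 diabetes from many gene variants. Of these, 7 mice received water (the vehicle) and 7 received indole, a microbial metabolite of tryptophan, at 20 mg/kg by oral gavage in 2 doses per day for 7 days, with further doses between the metabolic tests that followed. All 14 mice shared the strain, the gavage and the tests, and a non-diabetic strain was not analysed here. The comparisons address how the liver's growth hormone and IGF genes stood after sub-chronic indole in diabetic mice and how they varied from mouse to mouse.

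Growth hormone from the pituitary binds its receptor on hepatocytes, where the kinase JAK2 phosphorylates STAT5 proteins, which move to the nucleus and switch on target genes. Among these targets are *Igf1*, whose product is the circulating growth factor IGF-1, *Igfals*, and the inhibitors *Socs2* and *Cish*, which damp the signal in return. Liver also secretes binding proteins that carry IGF-1 in blood and limit its access to receptors, and the pulsed or steady pattern of growth hormone sets the sex-biased genes of mouse liver.

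The libraries of the vehicle group held 15390922 to 21060376 gene-assigned reads and those of the indole group 15197498 to 18464326. Levels are given as CPM, a gene's count relative to its library's total, after TMM scaling. Group levels are mean ± SD over the 7 mice, and log2 fold changes are indole minus vehicle from edgeR's quasi-likelihood test. No gene of the 12653 had an adjusted *p* below 0.05 in edgeR. At an unadjusted *p* below 0.05 there were 482 (3.81%), with 1.53% of the genes higher and 2.28% lower in indole-treated mice. DESeq2 gave 1 gene with an adjusted *p* below 0.05 and 532 unadjusted. The 7 hepatocyte markers, *Alb* among them, summed to between 66820 and 101307 CPM per mouse. Indole-treated mouse G8 stood apart in interferon genes, and vehicle-treated mice G11 and G13 had the highest summed acute phase genes (12484 and 8578 CPM, against at most 7586 in the other mice). In bulk tissue, fewer cells of a type and less RNA per cell cannot be told apart.

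Of the 10 axis genes, 2 had an unadjusted *p* below 0.05, *Ghr* (higher in indole-treated mice) and *Socs2* (lower), against the 3.81% of all genes given above. None had an adjusted *p* below 0.05, each adjusted *p* being 0.998 (edgeR). In all, 4 of the 10 were higher and 6 lower, with a median log2 fold change of −0.06, while 48.7% of all tested genes were lower and their median was 0.00. The sizes ranged from −0.79 for *Socs2* to 0.16 for *Igfbp1*. For *Igf1*, the main output of the axis, the 95% interval of the linear ratio of indole to vehicle ran from 0.918 to 1.20.

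**Figure D1:**
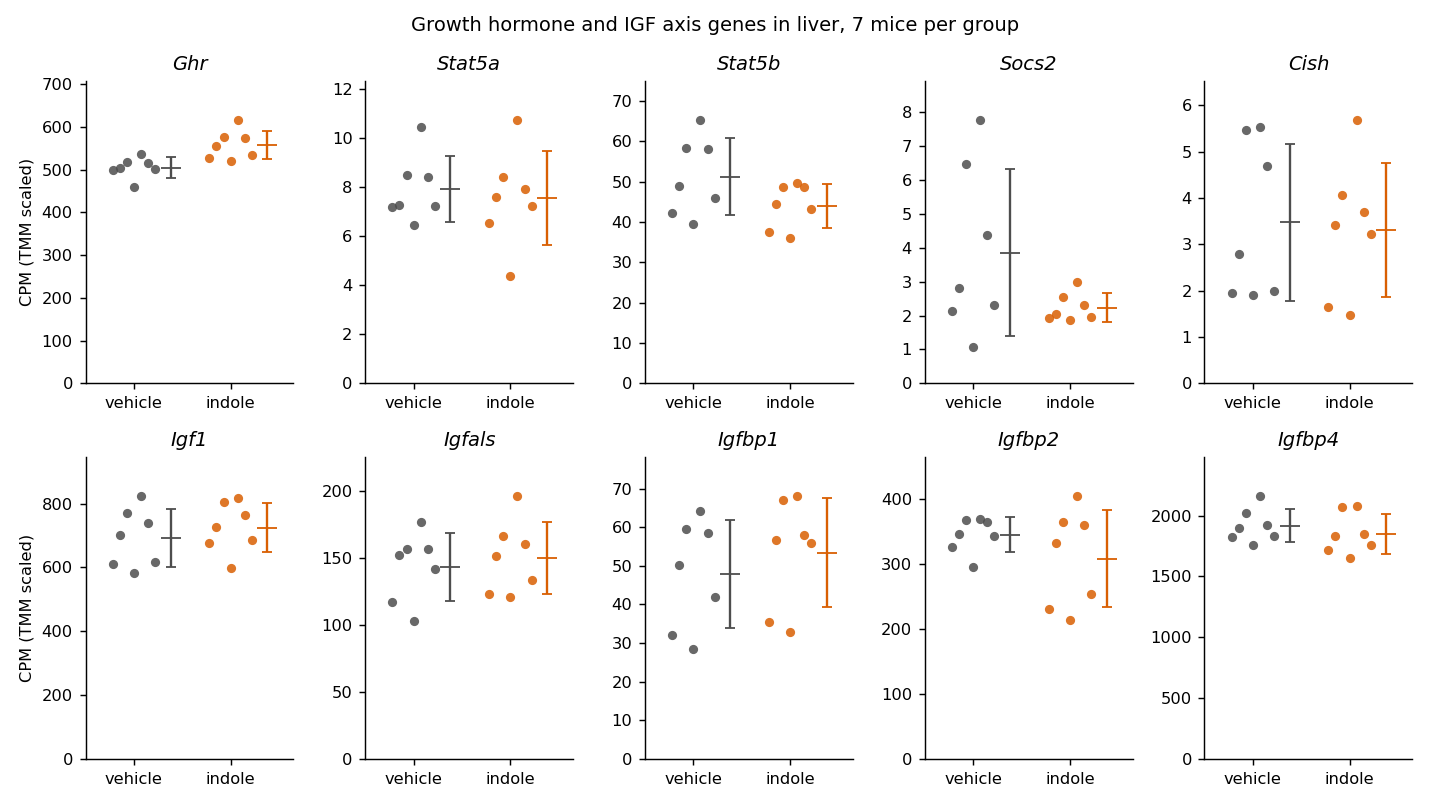
Level of each of the 10 genes in CPM (y axis from 0, TMM scaled) in the 7 vehicle-treated (grey) and 7 indole-treated (orange) mice, with 1 point per mouse and the mean ± SD beside the points. For *Ghr*, every point of the indole group is above 504 CPM, the vehicle median, and the vehicle group spreads more widely than the indole group for *Socs2*.

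Levels per kilobase used the gene length given with the counts, which need not be that of 1 transcript, and close ranks depend on it. In this order *Igfbp4* stood highest at 427 ± 33.8 CPM per kb (SD, *n*=14). It was followed by *Igfbp2* at 177 ± 31.0, *Igf1* at 71.6 ± 8.40, *Ghr* at 58.7 ± 4.35, *Igfals* at 46.4 ± 8.03 and *Igfbp1* at 33.2 ± 9.04 CPM per kb. The signalling genes were lower, with *Stat5b* at 8.60 ± 1.5, *Stat5a* at 1.08 ± 0.224, *Cish* at 0.529 ± 0.236 and *Socs2* at 0.319 ± 0.199 CPM per kb. The order between neighbours held in all 14 mice for 5 of the 9 neighbouring pairs and in 13 mice for *Ghr* over *Igfals*, *Stat5a* over *Cish* and *Cish* over *Socs2*. *Igfals* exceeded *Igfbp1* in 11 of 14 mice, so this pair was the least separated. The secreted proteins' genes and the receptor were thus far more abundant than the intracellular regulators.

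*Ghr* (ENSMUSG00000055737, GRCm38 chr15:3317760-3583492, minus strand) encodes the growth hormone receptor. In vehicle-treated mice its lowest, median and highest levels were 459, 504 and 537 CPM, and in indole-treated mice 521, 555 and 615 CPM. Every mouse given indole exceeded the vehicle median, and 4 exceeded the highest vehicle-treated mouse, so the groups overlapped in part. The means were 505 ± 24.4 and 558 ± 33.6 CPM (SD, *n*=7 each), which gives a log2 fold change of 0.14 (standard error 0.0646, 95% interval 0.01 to 0.28; adjusted *p*=0.998, edgeR). In linear terms this is a ratio of 1.10. An exact permutation test on log2 CPM over every relabelling of the mice gave a two-sided *p* of 0.00408, a value that 40 of the tested genes (0.316%) matched or undercut and that was 0.998 when adjusted over all genes. At an exact *p* below 0.05 there were 531 genes (4.2%), and *Ghr* was the only axis gene among them.

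*Ghr* was also among the genes with the smallest spread of log2 CPM within groups. Counting error is part of that spread in genes with few reads. The SD of its log2 CPM within groups was 0.08, below that of all but 0.885% of the tested genes, and the highest mouse exceeded the lowest by 1.34-fold. edgeR put its biological coefficient of variation at 0.119, where the trend for genes of its abundance was 0.178, and the edgeR test draws each gene's spread towards that trend. This coefficient stood at percentile 12.3 of the tested genes, counted from the lowest. The edgeR call of *Ghr* was lost without vehicle-treated mouse G9 or G11 or indole-treated mouse G2, G7 or G14, with log2 fold changes between 0.12 and 0.14, and with no filter on low counts.

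*Stat5b* (ENSMUSG00000020919, chr11:100780731-100850724, minus strand) and *Stat5a* (ENSMUSG00000004043, chr11:100859351-100885169, plus strand) lie side by side and encode the closely related transcription factors that carry the growth hormone signal, *Stat5b* being the main liver form. *Stat5b* ran from 39.6 to 65.2 CPM in vehicle-treated mice (median 49.0) and from 36.1 to 49.7 CPM in indole-treated mice (median 44.3). The 3 highest mice (G4, G1 and G9) were all vehicle-treated. At the other end, G8 and G5 (36.1 and 37.6 CPM), both given indole, were under the vehicle minimum of 39.6 CPM (G6). The remaining mice overlapped between the groups, and G7 alone among those given indole exceeded the vehicle median. The means were 51.2 ± 9.51 and 44.0 ± 5.48 CPM (SD, *n*=7 each), giving a log2 fold change of −0.22 (standard error 0.108, 95% interval −0.44 to 0.01; exact permutation *p*=0.119). *Stat5a*, which was far lower per kilobase, ran from 6.44 to 10.5 CPM (median 7.25) in the vehicle group and from 4.39 to 10.7 CPM (median 7.61) in the indole group. Its groups overlapped almost fully, and the log2 fold change was −0.07 (standard error 0.156, exact permutation *p*=0.612). Mouse G5 was the lowest for *Stat5a* and mouse G2 the highest, both indole-treated. The last 72 bases of *Stat5a* overlap the end of *Stat3*, which lies on the other strand and had 19291 reads over all mice against 1944 for *Stat5a*. Whether reads were counted by strand is not given in the sources used here.

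*Socs2* (ENSMUSG00000020027, chr10:95385362-95417180, minus strand) encodes a suppressor of cytokine signalling that is induced through STAT5 and limits the growth hormone receptor. It had few reads, 16 to 164 per mouse. Its lowest, median and highest levels were 1.08, 2.82 and 7.76 CPM with vehicle and 1.87, 2.05 and 3.0 CPM with indole. Every indole-treated mouse lay inside the range of the vehicle group, 6 of the 7 below its median, and the vehicle group's spread came mostly from mice G13 and G6 (7.76 and 6.47 CPM) above and G10 (1.08 CPM) below. The means were 3.85 ± 2.46 and 2.24 ± 0.416 CPM (SD, *n*=7 each), which gives a log2 fold change of −0.79 (standard error 0.334, 95% interval −1.49 to −0.08; adjusted *p*=0.998, edgeR). The exact permutation test on log2 CPM gave *p*=0.186. Without G13 the log2 fold change was −0.51 and the edgeR call was lost. It was also lost without vehicle-treated mouse G1 or G6 or indole-treated mouse G7, G8, G12 or G14, with log2 fold changes between −0.76 and −0.62.

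*Cish* (ENSMUSG00000032578, chr9:107296026-107302784, plus strand) encodes CIS, the other STAT5-induced inhibitor followed here. It ran from 1.90 to 5.54 CPM in the vehicle group (median 2.80) and from 1.47 to 5.67 CPM in the indole group (median 3.43). The groups covered nearly the same range, and the log2 fold change was −0.07 (standard error 0.326, 95% interval −0.76 to 0.62; exact permutation *p*=0.895). Both inhibitors varied widely between mice: the SD of log2 CPM within groups was 0.69 for each, above 94.8% of all tested genes for *Socs2* and 94.6% for *Cish*, and with 26 to 112 *Cish* reads per mouse counting error is part of that spread. Yet their levels were only loosely related between mice (Pearson *r*=0.25, permutation *p*=0.393). The bases from the RefSeq transcription start of *Cish* (GRCm38.p6, chr9:107296659-107296680, plus strand) are shown because they hold 2 matches to the STAT5-type motif TTCNNNGAA, in capitals, 5′ to 3′:
Cish: TTCCTGGAAagTTCTTGGAAat
The motif is its own reverse complement, so 1 search covers both strands. Of the 32851 RefSeq promoter windows of 300 bases (250 before and 50 after a start), 8.3% held it and 0.457% held 2 or more. Among the axis genes, 9 of the 10, all but *Socs2*, had a window (15 windows in all), and only the windows of *Cish* and *Igfals* held this motif.

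*Igf1* (ENSMUSG00000020053, chr10:87858265-87937042, plus strand) encodes IGF-1 and *Igfals* (ENSMUSG00000046070, chr17:24865997-24882010, plus strand) the acid labile subunit, which holds IGF-1 and its binding protein in a long-lived complex in blood. *Igf1* ran from 582 to 824 CPM in the vehicle group (median 703) and from 599 to 816 CPM in the indole group (median 728). All indole-treated mice lay within the vehicle range. The means were 692 ± 91.4 and 725 ± 77.6 CPM (SD, *n*=7 each), giving a log2 fold change of 0.07 (standard error 0.0915, 95% interval −0.12 to 0.26; exact permutation *p*=0.459). *Igfals* ran from 103 to 177 CPM (median 152) in the vehicle group and from 121 to 196 CPM (median 151) in the indole group. Its groups overlapped in 6 of 7 indole-treated mice, G5 alone lying above the vehicle range, and the log2 fold change was 0.07 (standard error 0.122, 95% interval −0.19 to 0.32; exact permutation *p*=0.638).

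The binding protein genes split in direction, and none passed the test. *Igfbp4* (ENSMUSG00000017493, chr11:99041244-99054392, plus strand), whose product holds IGF-1 away from its receptor, ran from 1755 to 2159 CPM in vehicle-treated mice (median 1901) and from 1655 to 2077 CPM in indole-treated mice (median 1834). The groups overlapped in most mice, and the log2 fold change was −0.05 (standard error 0.0745, exact permutation *p*=0.409). It was a steady gene, with an SD of log2 CPM within groups below that of all but 7.12% of tested genes. *Igfbp2* (ENSMUSG00000039323, chr1:72824503-72852474, plus strand), which encodes a binding protein made mainly in liver, ran from 296 to 370 CPM in the vehicle group (median 346) and from 214 to 405 CPM in the indole group (median 332). Here 3 indole-treated mice, G7, G8 and G2, lay below every vehicle-treated mouse at 214, 231 and 255 CPM and G5 above, so the indole group was the wider, with SDs of 74.8 against 26.9 CPM. The log2 fold change was −0.16 (standard error 0.125, 95% interval −0.42 to 0.10; exact permutation *p*=0.198).

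*Igfbp1* (ENSMUSG00000020429, chr11:7197782-7202546, plus strand) encodes a binding protein that insulin represses and fasting induces. Its levels were 28.5, 50.2 and 64.2 CPM (lowest, median and highest) in the vehicle group and 32.8, 56.8 and 68.0 CPM in the indole group. In each group most mice lay between 42 and 68 CPM and a few lower (G10 and G13 in the vehicle group, G2 and G12 in the indole group), and the groups overlapped widely. The log2 fold change was 0.16 (standard error 0.217, 95% interval −0.31 to 0.63; exact permutation *p*=0.481). The 250 bases before its RefSeq start (GRCm38.p6, chr11:7197537-7197786, plus strand) are shown because they hold the letters of the insulin response element, searched as CAAAACA and CAAAATA on both strands and put in capitals, 5′ to 3′:
Igfbp1: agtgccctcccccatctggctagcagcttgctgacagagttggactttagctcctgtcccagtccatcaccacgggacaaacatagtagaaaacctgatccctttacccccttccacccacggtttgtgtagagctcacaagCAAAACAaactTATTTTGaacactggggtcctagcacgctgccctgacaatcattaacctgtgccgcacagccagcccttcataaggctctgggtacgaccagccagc
Both matches lie within the last 108 bases before the start, the nearer ending 91 bases from it. Of the 32851 windows, 10.2% held such a match and 1.1% held 2 or more, and no other axis gene's window did.

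**Figure D2:**
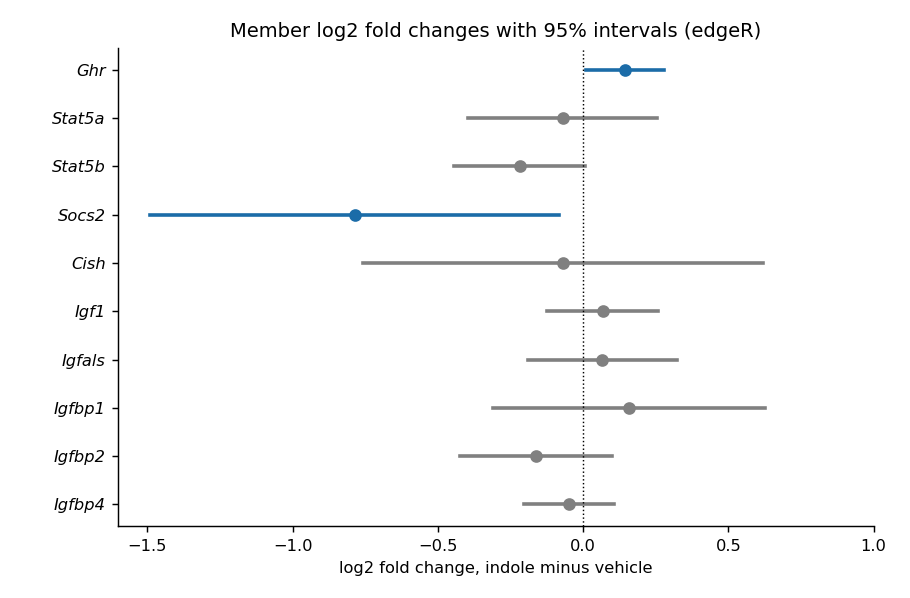
Log2 fold change of each gene (x axis, indole minus vehicle, edgeR) with its 95% interval; blue marks an unadjusted *p* below 0.05. The intervals of *Ghr* and *Socs2* (blue) leave out 0, that of *Stat5b* reaches just past it, and the interval of *Socs2* (−1.49 to −0.08) is far wider than that of *Ghr* (0.01 to 0.28).

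Between mice, the clearest feature of the axis was that *Igf1* and *Igfals* went together. Over the 14 mice their log2 CPM had a Pearson *r* of 0.87 (permutation *p*=3e-05, 0.00135 adjusted over the 45 pairs of axis genes) and a Spearman rho of 0.88 (permutation *p*=5e-05). Within the vehicle group *r* was 0.85 (exact permutation *p*=0.0111, *n*=7) and within the indole group 0.91 (exact permutation *p*=0.00615, *n*=7). Without the 2 mice farthest from the median of *Igf1*, *r* was 0.80. The lowest mice for both genes were G4, G3 and G1, and G5 was the highest for *Igfals* and the second for *Igf1*. *Igfals* also went with *Igfbp4* (*r*=0.80, permutation *p*=0.00075, adjusted *p*=0.0169; rho=0.84, permutation *p*=0.00043), and this *r* was 0.80 too without the 2 mice farthest from the median of *Igfals*. These were the 2 of 45 pairs (4.44%) with an adjusted *p* below 0.05. Among all pairs of tested genes, 0.526% had an *r* at least as far from 0 as the weaker of them.

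The 250 bases before the *Igf1* start and before the middle of the 3 *Igfals* starts in RefSeq (GRCm38.p6, plus strand, chr10:87860861-87861110 and chr17:24877981-24878230) are set side by side because these genes moved together between mice, with TTCNNNGAA in capitals, 5′ to 3′:
Igf1: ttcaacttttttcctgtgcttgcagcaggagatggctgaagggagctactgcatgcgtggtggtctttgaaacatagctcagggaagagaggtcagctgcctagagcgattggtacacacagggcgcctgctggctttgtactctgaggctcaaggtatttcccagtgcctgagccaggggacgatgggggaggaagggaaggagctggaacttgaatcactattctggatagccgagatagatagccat
Igfals: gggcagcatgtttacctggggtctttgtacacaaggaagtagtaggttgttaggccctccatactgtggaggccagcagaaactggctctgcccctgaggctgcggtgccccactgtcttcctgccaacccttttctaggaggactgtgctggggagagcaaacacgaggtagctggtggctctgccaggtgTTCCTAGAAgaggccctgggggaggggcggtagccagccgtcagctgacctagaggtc
The *Igfals* match lies 50 to 58 bases before the start, and the window of another *Igfals* start held a match at 228 to 236 bases before it. The window of the *Igf1* start held no match.

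The *Stat5* genes had negative correlations with *Igf1*, *Igfals* and *Igfbp4*. *Stat5a* had an *r* of −0.66 with *Igfals*, −0.63 with *Igfbp4* and −0.53 with *Igf1*, and *Stat5b* one of −0.63 with *Igfals*, −0.61 with *Igf1* and −0.35 with *Igfbp4*. With *Igfbp1* and *Igfbp2* the *r* was −0.30 and −0.22 for *Stat5a* and 0.01 and 0.27 for *Stat5b*. No pair of a *Stat5* gene passed after adjustment over the 45 pairs (adjusted *p* of at least 0.111, permutation), although the 3 of *Stat5a* did by Spearman rho (−0.78, −0.82 and −0.76; adjusted permutation *p* 0.0179, 0.00855 and 0.0202). *Stat5a* and *Stat5b* were positively related (*r*=0.46, permutation *p*=0.0956). *Socs2*, *Cish*, *Igfbp1* and *Igfbp2* had no pair that passed. The receptor *Ghr* had an *r* of 0.34 with *Igf1*, 0.73 in the vehicle group (exact permutation *p*=0.0393, *n*=7) and −0.18 in the indole group (exact permutation *p*=0.705, *n*=7), and this difference was not tested.

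**Figure D3:**
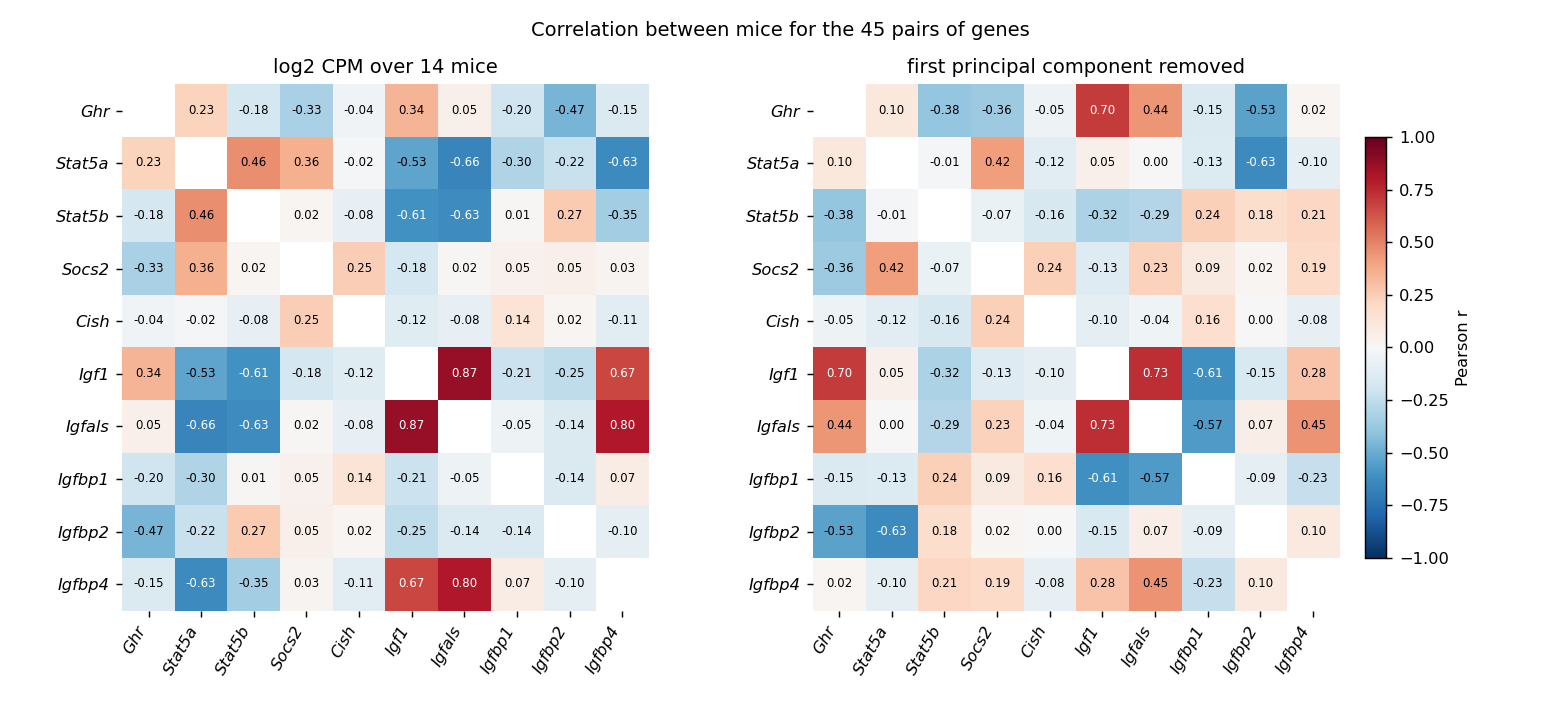
Pearson *r* over the 14 mice for the 45 pairs of axis genes, on log2 CPM (left) and after the first principal component of all tested genes was removed (right), from −1 (blue) to 1 (red). *Igf1*, *Igfals* and *Igfbp4* form a red block at 0.67 to 0.87 against blue cells of the *Stat5* genes on the left, and on the right *Igf1* with *Igfals* is at 0.73 and *Igfals* with *Igfbp4* at 0.45.

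This pattern lay along the largest axis of variation among the libraries. The first principal component of all tested genes held 16.7% of their variance, and 34.8% of genes had an *r* with it of at least 0.5 in size. Its *r* was 0.85 with *Igfals*, 0.76 with *Igfbp4* and 0.71 with *Igf1*, against −0.78 with *Stat5a* and −0.60 with *Stat5b*, and between −0.21 and 0.29 with the other 5 axis genes. The group means of its score were 0.0162 for indole and −0.0162 for vehicle, while the scores of single mice ran from −0.337 (G2) to 0.448 (G5). Genes at its ends differed in the gene length given with the counts. The median was 2418 bases among the tenth of genes most positively related to it and 6953 bases among the tenth most negatively related. It had an *r* of 0.52 with the share of reads on 83 ribosomal protein genes. RNA quality values were not used here, and the part of RNA quality or library composition in these correlations was not tested. With this component removed, *Igf1* and *Igfals* had an *r* of 0.73 (permutation *p*=0.00256, adjusted *p*=0.115) and *Igfals* and *Igfbp4* one of 0.45, and no pair passed. The *r* of *Stat5a* was then 0.003 with *Igfals*, −0.10 with *Igfbp4* and 0.05 with *Igf1*. For *Stat5b* it was −0.29, 0.21 and −0.32 in the same order, and between *Stat5a* and *Stat5b* it was −0.01. Some pairs grew in size, among them *Ghr* with *Igf1* from 0.34 to 0.70 (adjusted permutation *p*=0.12). *Igf1* with *Igfbp1* went from −0.21 to −0.61 and *Stat5a* with *Igfbp2* from −0.22 to −0.63 (adjusted permutation *p*=0.221 for each).

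**Figure D4:**
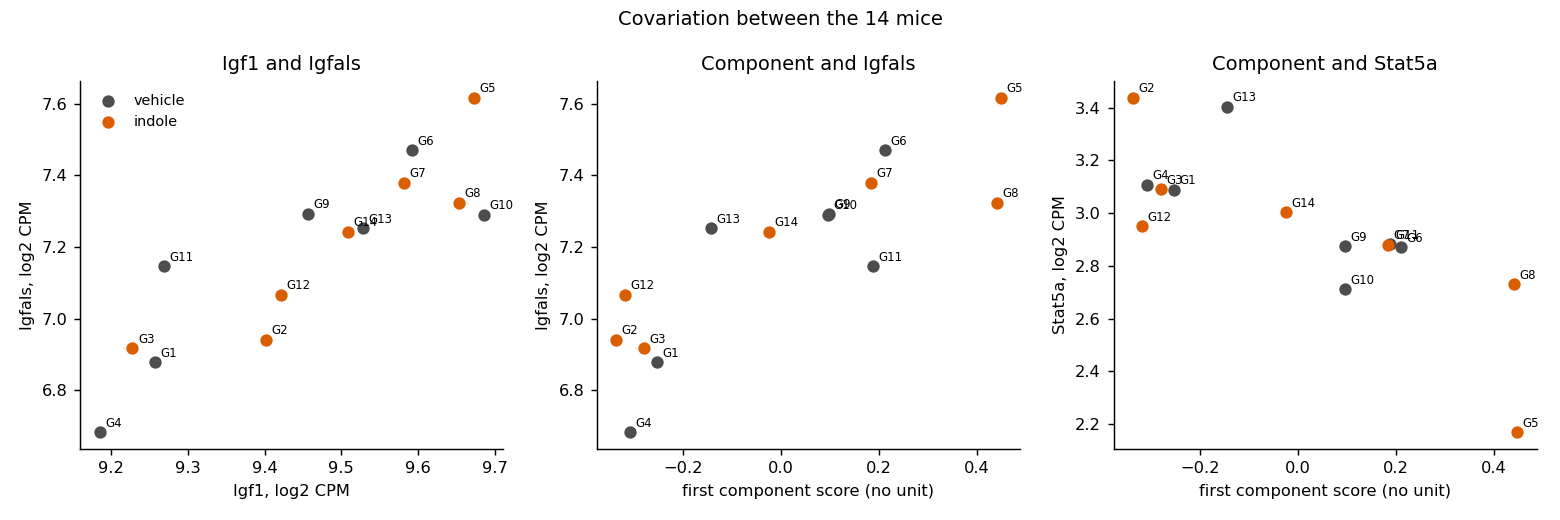
Log2 CPM of *Igfals* against *Igf1* (left) and of *Igfals* (middle) and *Stat5a* (right) against the score of the first principal component of all tested genes, with 1 labelled point per mouse (vehicle grey, indole orange). Mice of both groups lie at low and high scores; *Igfals* is higher at high scores (*r*=0.85) and *Stat5a* lower (*r*=−0.78).

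The genes nearest to each axis gene were found by Pearson *r* of log2 CPM over the 14 mice among the other 12652 tested genes, as a description. For *Igfals* they were *Rplp0*, *Arl8b* and *Akr7a5* (*r* 0.96, 0.95 and 0.95), for *Igf1* *Strap*, the pseudogene *Rpsa-ps10* and *Erp44* (0.95, 0.93 and 0.92), and for *Stat5a* *Rev3l*, *Nsd1* and *Cask* (0.91, 0.91 and 0.90). For *Ghr* they were *Ces1e*, *Acat1* and *Csad* (0.89, 0.83 and 0.82), which encode liver enzymes. *Socs2* was nearest to *Ehmt2*, *Usp6nl* and *Mmp17* (0.82, 0.78 and 0.77) and *Cish* to *Tcf21*, *Rab30* and *Ddx18* (0.82, 0.80 and 0.79). *Stat5b* was nearest to *Fchsd2*, *Pogk* and *Zfp592* (0.89, 0.89 and 0.88), *Igfbp1* to *Gpr153*, *Ccdc62* and *Mrgprb11-ps* (0.89, 0.87 and 0.85), *Igfbp2* to *Trmt10c*, *Smim13* and *Ppih* (0.86, 0.84 and 0.81) and *Igfbp4* to *Rps2-ps10*, *Tmco1* and *Apoe* (0.93, 0.92 and 0.90). The nearest genes of *Igf1*, *Igfals* and *Stat5a* had themselves an *r* of at least 0.68 in size with the first principal component, those of *Ghr*, *Socs2* and *Cish* one of at most 0.26.

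None of the other growth hormone signalling genes passed the adjusted test. Of 11 such genes, 10 were tested, 4 higher and 6 lower, with a median log2 fold change of −0.04. *Jak2*, the receptor's kinase, was at 14 ± 1.85 CPM with vehicle and 13 ± 2.59 CPM with indole (SD, *n*=7 each), and *Ptpn11*, a phosphatase gene and the most abundant of the list per kilobase, at 64.6 ± 4.46 and 61.6 ± 6.0 CPM. Unadjusted *p* values below 0.05 were found for *Stat3* and for *Socs3*, a feedback inhibitor shared with interleukin-6 signalling (log2 fold changes −0.32 and −1.25, adjusted *p*=0.998 in edgeR; exact permutation *p*=0.0676 and 0.0251). In both, vehicle-treated mouse G13 was the highest of all mice (123 CPM for *Stat3*, 11.5 CPM for *Socs3*), and it was also the highest for *Socs2*. Without G13, 1 of the 2 remained below 0.05 before adjustment, and without G8, G11 and G13 none did.

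Of 15 other genes of the IGF system, 9 were tested, 4 higher and 5 lower, with a median log2 fold change of −0.01. *Igfbp7*, the most abundant per kilobase, was at 60.7 ± 5.29 and 63.6 ± 11.1 CPM, and *Igfbp3*, whose product joins IGF-1 and the *Igfals* product in their complex, at 30.5 ± 6.36 and 30.4 ± 9.99 CPM (SD, *n*=7 each). The IGF-1 receptor gene *Igf1r* was at 1.41 ± 0.407 and 1.54 ± 0.616 CPM, and the insulin receptor gene *Insr* at 127 ± 8.52 and 115 ± 13.8 CPM. *Igfbp6*, which encodes a binding protein with a preference for IGF-2, was at 2.04 ± 0.723 CPM with vehicle and 0.967 ± 0.795 CPM with indole. The difference was −1.10 on the log2 scale (standard error 0.459; exact permutation *p*=0.0117), with an unadjusted edgeR *p* below 0.05 and an adjusted one of 0.998. It ran from 1.27 to 3.16 CPM in vehicle-treated mice and from 0 to 2.55 CPM in indole-treated mice, of which 6 of 7 lay below every vehicle-treated mouse. The unadjusted edgeR *p* was not below 0.05 without vehicle-treated mouse G4 or G11 or indole-treated mouse G7 or G14. Markers of the mesothelium, the cell layer on the liver's surface (*Msln*, *Upk3b* and *Wt1*), had the same sign: both that were tested were lower with indole (1 at an unadjusted *p* below 0.05), and their sum ran from 3.25 to 12.1 CPM with vehicle and from 0.210 to 6.88 CPM with indole, G2 being lowest for them and for *Igfbp6*. Their part in the *Igfbp6* difference was not tested.

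No male-biased or female-biased target of growth hormone passed the test. Of 20 male-biased genes 18 were tested, 15 higher and 3 lower in indole-treated mice (median 0.23 on the log2 scale), and of 23 female-biased genes 16 were tested, 2 higher and 14 lower (median −0.12). Across all tested genes 6489 of 12653 were higher. The female-biased count rested in part on single mice, with 10 of the 16 genes lower without indole-treated mouse G2, 11 without vehicle-treated mouse G11 and 9 without vehicle-treated mouse G6. The summed level of the female-biased list had a median of 706 CPM with vehicle and 756 CPM with indole, the opposite order to the gene count. Its range did not share that order, running from 578 to 1271 CPM with vehicle and from 261 to 1125 CPM with indole. The summed level of the male-biased list had medians of 7418 and 8987 CPM. No gene of either list had an unadjusted *p* below 0.05, and genes under a shared regulator move together from mouse to mouse, so these counts are not independent. The major urinary protein gene *Mup3*, the most abundant male-biased gene per kilobase, was at 4203 ± 1378 and 5338 ± 1397 CPM (SD, *n*=7 each), a log2 fold change of 0.34 (standard error 0.219, exact permutation *p*=0.139), and its reads can be split among near-identical *Mup* copies. The most abundant female-biased gene, *A1bg*, was at 265 ± 111 and 265 ± 205 CPM. Vehicle-treated mouse G11 had the lowest summed male-biased level (5103 CPM) and the highest summed female-biased level (1271 CPM), and indole-treated mouse G2 the reverse (13239 and 261 CPM).

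The 10 axis genes were also set against 5 measures of each mouse, namely the scores of the male-biased, female-biased and insulin-induced lists and of the list that insulin represses through FoxO1, and the ribosomal share. None of these 50 relations passed after adjustment. *Ghr* had an *r* of 0.70 with the male-biased score (rho=0.64; permutation *p*=0.00502, adjusted *p*=0.144), 0.77 and 0.65 within the vehicle and indole groups, and 0.39 without the 2 mice farthest from the median. The relation thus rested in part on those mice. *Igfbp1* had an *r* of −0.70 with the male-biased score (rho=−0.61; permutation *p*=0.00677, adjusted *p*=0.144), −0.80 and −0.85 within the groups, and −0.75 without the 2 farthest mice. With the female-biased score *Igfbp1* had an *r* of 0.66 (rho=0.61; permutation *p*=0.00866, adjusted *p*=0.144). With the ribosomal share *Igf1* had an *r* of 0.64 and *Igfals* one of 0.59 (permutation *p*=0.0152 and 0.0255, adjusted *p*=0.182 for each). Within the vehicle and indole groups it was 0.91 and 0.35 for *Igf1* and 0.78 and 0.41 for *Igfals*. Without the 2 farthest mice it was 0.47 for *Igf1* and 0.41 for *Igfals*.

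**Figure D5:**
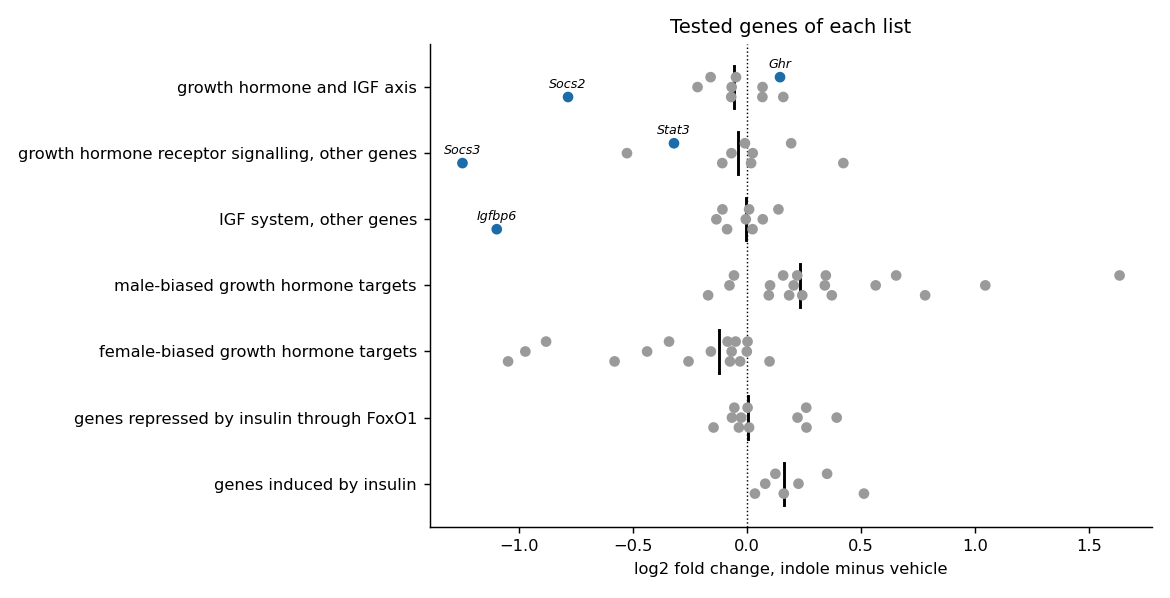
Log2 fold change (x axis, indole minus vehicle, edgeR) of each tested gene of the axis and of 6 related lists, with 1 point per gene, blue and named where the unadjusted *p* was below 0.05, and a bar at each list's median. The male-biased targets sit mostly right of 0 (median 0.23) and the female-biased targets mostly left (median −0.12), with no blue point in either.

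Insulin-regulated genes were read beside *Igfbp1*. Of 11 genes that insulin represses through FoxO1, 6 were higher and 5 lower (median 0.00 on the log2 scale), and *Pck1*, the gluconeogenic enzyme gene and the most abundant, was at 2095 ± 466.1 and 2097 ± 638 CPM (SD, *n*=7 each). Of 8 genes that insulin induces, 7 were tested and all 7 were higher (median 0.16), with none at an unadjusted *p* below 0.05; *Scd1*, the most abundant, was at 3807 ± 2492 and 4448 ± 1500 CPM. *Igfbp1* had an *r* of 0.16 with the FoxO1 score (rho=0.14, permutation *p*=0.575) and −0.32 with the insulin-induced score (rho=−0.27, permutation *p*=0.262). These relations were also read within each group of 7 mice, without adjustment. With the FoxO1 score *r* was 0.84 in the vehicle group (exact permutation *p*=0.023) and −0.34 in the indole group (exact permutation *p*=0.461). With the insulin-induced score it was −0.69 and −0.08 (exact permutation *p*=0.0905 and 0.864). These differences between groups were not tested.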

How the data were processed

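Strand-specific libraries of polyadenylated RNA from the right liver lobe were sequenced for 14 mice. Alignment by the authors was with HISAT2 to GRCm38 (tool and build as in the submitters' processing notes) with Ensembl annotation, and they kept uniquely mapped reads, so near-identical copies can have lost reads, and deposited raw counts of reads per gene, without normalisation. The counting tool is not given in the sources used here. Mice were grouped by the treatment in their labels and are named by their libraries, G1 to G14. All 14 columns of counts were used.

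Counts were tested with edgeR 4.0.16 in R 4.3.3 (TMM, filterByExpr, robust quasi-likelihood fit) on 12653 genes, with Benjamini–Hochberg adjustment. Totals per mouse ran from 15197498 to 21060376, so genes such as *Socs2*, with 16 reads in 1 mouse, carry a large counting error. Intervals are those of the fit. Correlations used log2 CPM (prior count 2) and 100000 permutations, or the 5040 pairings within a group. Adjusted *p* values for correlations are over the 45 pairs, or the 50 relations to scores. A list's score was the mean over its genes of log2 CPM standardised over mice.

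The members and lists were chosen with earlier results of these data known. The text names every member, its 3 nearest genes by *r*, and, from each pathway or state list, the most abundant gene per kilobase and those with an unadjusted edgeR *p* below 0.05; other list genes named for their role (*Jak2*, *Igfbp3*, *Igf1r*, *Insr*) were chosen after their values were seen. Promoter windows came from RefSeq on GRCm38.p6. The procedure was tested on simulated counts. The alternatives were RLE and upper quartile scaling, no filter, DESeq2 1.42.0, limma 3.58.1 voom with quality weights, a fit that was not robust, leaving out each mouse, and, for pairs, Spearman, centring within groups and a prior count of 0.5. Leaving out G8, G11 and G13 together, the ribosomal share as a covariate, the exact test for all genes, the list counts in each setting and removal of the first principal component were chosen after seeing the data. The labels give no batch, cage or litter.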

Additional observations from a re-analysis of the deposited data

Results flagged for a closer look

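In groups of 7 mice, the distance from the highest or lowest mouse to the next was divided by the group's whole range, and a share above Dixon's critical value of 0.568 was noted. Over 62 comparisons, of which chance would note about 1 in 20, 3 passed, all in indole-treated mouse G8 and none for an axis gene. They were the summed interferon response genes (0.9683 of the range, 1697 CPM against 329 in the next mouse), the summed Kupffer cell and macrophage markers (0.7585, 369 against 160 CPM) and the summed T and NK cell markers (0.8473, 4.51 against 1.07 CPM). In G8, *Igf1* was at 805 CPM, the second highest of its group, *Stat5b* at 36.1 CPM, the lowest of all mice, and *Igfbp2* at 231 CPM, the second lowest of all mice.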

How the results depend on the processing

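With no filter on low counts, 1336 of 22535 genes had an unadjusted *p* below 0.05, and DESeq2 gave 1 gene with an adjusted *p* below 0.05. The number of axis genes with an unadjusted *p* below 0.05 was 1 with limma voom, 0 without G8, G11 and G13, and between 1 and 3 when each mouse was left out in turn. Over 22 alternatives *Ghr* kept its direction with log2 fold changes from 0.12 to 0.16 and *p* from 0.00538 to 0.104, below 0.05 in 15, and *Socs2* from −0.94 to −0.51 with *p* from 0.00333 to 0.144, below 0.05 in 13. *Stat5b* ran from −0.27 to −0.15, with *p* below 0.05 in 7. Leaving out each mouse in turn gave log2 fold changes from −0.25 to 0.0815 for *Cish*, from −0.18 to 0.0244 for *Stat5a* and from −0.009 to 0.13 for *Igfals*, on both sides of 0. Without G8, G11 and G13 the direction turned for *Stat5a* (0.031) and *Igfbp1* (−0.0096). Of the 45 pairs, 6 passed with Spearman, 4 with values centred within groups, 4 without G8, G11 and G13, and 0 with the first principal component removed, where *Igf1* with *Igfals* was at 0.73 and *Igfals* with *Igfbp4* at 0.45. Leaving out each mouse in turn gave between 2 and 3 pairs. The causes of these shifts were not tested. No paired analysis was possible because the groups share no replicate numbers. Low reads limit *Socs2* and *Cish*.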

Other observations

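Other gene groups of the liver that bear on the axis were read as counts and medians. The 10 clock genes had log2 fold changes from −0.32 to 0.28 with a median of −0.04 (4 higher, 6 lower, none at an unadjusted *p* below 0.05 in edgeR). Genes that peak at different hours can shift in opposite directions, so this median is no check on the hour of sampling. The most abundant, *Dbp*, was at 198 ± 29.3 and 190 ± 22.1 CPM (SD, *n*=7 each) in the vehicle and indole groups. Of 7 genes of the ATF4 stress response, 6 were tested, 3 higher and 3 lower, with *Atf4* at 61.0 ± 13.8 and 67.3 ± 15.8 CPM. Of 10 interferon response genes 8 were higher and 2 lower, none below 0.05 before adjustment. Without mouse G8 all 10 were lower in indole-treated mice (median log2 fold change −0.63), 7 of them at an unadjusted *p* below 0.05 (edgeR). The smallest adjusted *p* of any gene was then 0.999 (edgeR). With all mice, DESeq2 and limma voom each gave 8 lower, with 5 and 0 of the 10 genes at an unadjusted *p* below 0.05. The summed level was 1697 CPM in G8 and between 285 and 329 CPM in the remaining 6 mice given indole, below every vehicle-treated mouse (346 to 579 CPM). The most abundant per kilobase, *Bst2*, was at 99.2 ± 20.5 and 110.0 ± 51.3 CPM.

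All 7 acute phase genes were lower in indole-treated mice (median log2 fold change −0.54), 2 of them, the serum amyloid genes *Saa1* and *Saa2*, below 0.05 before adjustment (log2 fold changes −2.82 and −3.09, adjusted *p*=0.998 in edgeR; exact permutation *p*=0.237 and 0.195). Without vehicle-treated mouse G11, 5 were lower and 2 higher, with none below 0.05 (median −0.18). The most abundant per kilobase, *Orm1*, was at 1073 ± 256 and 1044 ± 118 CPM (SD, *n*=7 each). Their highest mouse, G11, was the lowest of all mice for *Ghr* (459 CPM). The next highest, G13 and G8 (8578 and 7586 CPM summed), had *Ghr* at 517 and 534 CPM, above the vehicle median of 504 CPM. A relation between the acute phase genes and *Ghr* was not tested.

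Cell type markers were lists of 3 to 7 genes. The 7 markers of sinusoidal endothelium were all higher in indole-treated mice (median log2 fold change 0.23), 1 of them, *Clec4g*, at an unadjusted *p* below 0.05, and without vehicle-treated mouse G13 5 were higher and 2 lower. The 7 Kupffer cell markers were also all higher (median 0.29), with none below 0.05, but without mouse G8 3 were higher and 4 lower (median −0.06). Their summed level was 369 CPM in G8 and between 92.9 and 160 CPM in the remaining 6 mice given indole, inside the vehicle range of 76.5 to 178 CPM. The 3 erythroid markers, *Hba-a1*, *Hbb-bs* and *Alas2*, were higher (median 0.99), each at an unadjusted *p* below 0.05 (exact permutation *p*=0.0600, 0.0367 and 0.0216). Their sum was 989 CPM in G5 and 950 CPM in G14, and 243 to 536 CPM in the other mice given indole. With vehicle it ran from 186 to 352 CPM. Without G5, and likewise without G14, 2 of the 3 stayed below 0.05. The 5 cholangiocyte markers were lower (median −0.34), 1 of them, *Krt19*, below 0.05. Stellate cell markers had 3 higher and 4 lower (median −0.01), with the collagen gene *Col1a1* lower below 0.05 (−0.67 on the log2 scale, exact permutation *p*=0.0117). Hepatocyte markers had 3 higher and 4 lower (median −0.01), with the transthyretin gene *Ttr* higher below 0.05 (0.24, exact permutation *p*=0.00758). The 2 mesothelium markers tested were lower (median −1.23), *Msln* below 0.05. None of these markers had an adjusted *p* below 0.05 in edgeR, and those named were chosen after their values were seen. T and NK cell, B cell and pancreatic acinar markers were too low to be tested, at most 4.51, 2.16 and 0.0515 CPM summed. The part of these shifts in the axis genes' values was not tested.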
